A study of Mus musculus with 9 samples.

Results

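The genes described here are 9 members of the aldo-keto reductase family, Akr1b8, Akr1b7, Akr1b3, Akr1c12, Akr1c13, Akr1c14, Akr1c19, Akr7a5 and Akr1e1, out of 24930 gene symbols measured in the mouse intestinal crypt. They were chosen by symbol, and the family was chosen on a value of these same data: Akr1b8 was higher in every mutant library than in any control library. The level of Akr1b8 in mutant against control libraries is therefore given as a description, with no test. All 9 genes reached at least 1 FPKM (fragments per kilobase of transcript, scaled to library size) in at least 3 libraries, as 12097 genes in all did.

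RNA was measured in primary crypt epithelium of the mouse intestine, with no region given in the labels, 8, 9 and 10 days after 1 gain-of-function allele of the β-catenin gene Ctnnb1 was induced. There were 9 libraries in 3 groups of 3, with 1 library per group and day. Sample titles read Cdx2het_Bcathet for mutant set B, Bcathet for mutant set A and Control, with no allele given, for the third group. Library names instead put CDX2HET beside EXON3 in set A and give EXON3 with no CDX2HET in set B. Which set carries the Cdx2 allele is therefore not known, and the neutral names B and A are kept. The driver of the allele, strain, age and number of animals per library are not stated in the labels, and p-values measure only the spread between these libraries.

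Aldo-keto reductases are soluble enzymes that use NADPH to reduce aldehydes and ketones to alcohols, among them sugars, retinal, steroids, prostaglandins and the reactive aldehydes left by lipid peroxidation. The gut lining is exposed to such carbonyls from food and microbes. In human tissue the related AKR1B10 is known as an intestinal enzyme, and mouse Akr1b8 is often treated as its counterpart.

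The libraries held epithelial RNA: the 7 epithelial markers (Epcam, Vil1, Cdh1, Krt8, Krt18, Krt20 and Cdh17) summed to 3588 to 4275 FPKM in the mutants and to 3460 to 4173 FPKM in control. Ctnnb1 averaged 227 ± 11.9 FPKM in the mutants and 195 ± 10.5 FPKM in control (SD, n = 6 and 3), a difference that did not pass limma's test over all genes (log2 0.22 ± 0.07 SE, adjusted p = 0.126). A total over the gene cannot tell transcripts of the altered allele from others, so it does not check the allele. The day 9 library of set B stood apart. On principal component 1, which held 43.5% of the variance, it lay at −19.1, beside the controls at −22.7 to −21.6 and away from the other 5 mutant libraries at 2.57 to 30.0. It was also the one library with Y-linked RNA, at a sum of 41.7 FPKM over 4 genes against at most 0.047 FPKM in the other 8, and with Xist near 0. Values that rest on this library are given with and without it.

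Akr1b8, Akr1b10 and Akr1b7 lie in a row, with Akr1b3 before them and Bpgm after them, on chromosome 6. Akr1c14, Akr1c13, Akr1c19, Akr1c12 and Akr1e1 lie on chromosome 13, with Akr1c18 between Akr1c14 and Akr1c13, and Akr7a5 lies on chromosome 4. Promoter windows of 300 bases around the annotated start were taken from RefSeq (build GRCm38.p6) and matched 8 of the 9 members by symbol, all but Akr1b3. Those of Akr1b8, of its neighbours Akr1b10 and Akr1b7, and of the near copies Akr1c13 and Akr1c12 are shown because their levels are compared below. Capitals mark a match to a searched motif.
Akr1b8, chr6:34353896-34354195, plus strand: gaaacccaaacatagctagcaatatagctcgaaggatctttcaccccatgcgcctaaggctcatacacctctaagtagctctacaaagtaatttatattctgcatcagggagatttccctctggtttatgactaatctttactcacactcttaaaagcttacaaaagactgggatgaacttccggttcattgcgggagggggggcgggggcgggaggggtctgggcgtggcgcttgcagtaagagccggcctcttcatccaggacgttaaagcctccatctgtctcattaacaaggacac
Akr1b10, chr6:34383997-34384296, plus strand: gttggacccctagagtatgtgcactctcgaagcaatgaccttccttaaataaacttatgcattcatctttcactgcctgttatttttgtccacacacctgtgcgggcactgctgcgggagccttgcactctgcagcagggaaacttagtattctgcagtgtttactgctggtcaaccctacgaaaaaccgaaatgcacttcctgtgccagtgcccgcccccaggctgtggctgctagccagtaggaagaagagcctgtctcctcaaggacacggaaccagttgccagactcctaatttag
Akr1b7, chr6:34412112-34412411, plus strand: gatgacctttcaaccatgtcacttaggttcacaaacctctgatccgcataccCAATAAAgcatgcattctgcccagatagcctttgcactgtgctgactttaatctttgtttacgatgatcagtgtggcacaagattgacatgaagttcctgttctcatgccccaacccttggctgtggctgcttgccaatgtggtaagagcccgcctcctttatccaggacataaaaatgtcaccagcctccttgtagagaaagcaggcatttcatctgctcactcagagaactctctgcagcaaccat
Akr1c13, chr13:4190937-4191236, plus strand: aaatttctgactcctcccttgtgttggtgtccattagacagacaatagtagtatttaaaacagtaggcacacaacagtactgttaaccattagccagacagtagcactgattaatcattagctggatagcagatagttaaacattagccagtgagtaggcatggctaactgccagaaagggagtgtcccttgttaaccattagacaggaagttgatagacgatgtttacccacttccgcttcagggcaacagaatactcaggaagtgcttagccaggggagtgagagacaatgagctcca
Akr1c12, chr13:4279350-4279649, minus strand: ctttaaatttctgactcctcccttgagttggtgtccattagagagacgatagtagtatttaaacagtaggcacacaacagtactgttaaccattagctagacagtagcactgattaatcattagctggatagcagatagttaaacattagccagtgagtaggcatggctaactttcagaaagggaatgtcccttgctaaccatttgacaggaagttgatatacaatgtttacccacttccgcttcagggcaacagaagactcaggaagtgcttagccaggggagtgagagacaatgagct

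The windows of Akr1c12 and Akr1c13 were identical at 284 of 296 aligned bases (95.9%). Each window was searched on both strands for TGACNNNGC (the core of the antioxidant response element bound by NRF2), TGANTCA (AP-1), CTTTGAT (TCF/LEF) and TTTATNG (CDX). These letters occur in 12.4%, 7.81%, 3.73% and 10.9% of all 32851 promoter windows. Among the 8 member windows, TGACNNNGC was found in that of Akr1c19 and TTTATNG in those of Akr1b7 and Akr1c14, while the other 2 motifs were found in none. The Akr1b8 window held none of the 4. A match is a run of letters and no match says nothing of the factor.

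Akr1b8, which reduces retinal and lipid-derived aldehydes, had 37.9, 29.5 and 29.1 FPKM in set B and 18.5, 30.8 and 22.7 FPKM in set A on days 8, 9 and 10, against 8.56, 6.29 and 5.51 FPKM in control. The lowest mutant library was 2.16 times the highest control library. Its mean was 28.1 ± 6.75 FPKM in the mutants and 6.79 ± 1.59 FPKM in control (SD, n = 6 and 3), a ratio of 4.14. On the log2(FPKM + 1) scale, and as a description only, the difference was 1.89 ± 0.18 (SE), the 27th highest of 12097 genes. Leaving out any 1 library kept it between 1.77 and 2.04, and it was 1.91 without the day 9 library of set B. The values rest on about 452 to 919 fragments per mutant library and 139 to 207 per control library. In bulk RNA, fewer cells of a type and less RNA per cell cannot be told apart, here and for every gene below.

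**Figure D1:**
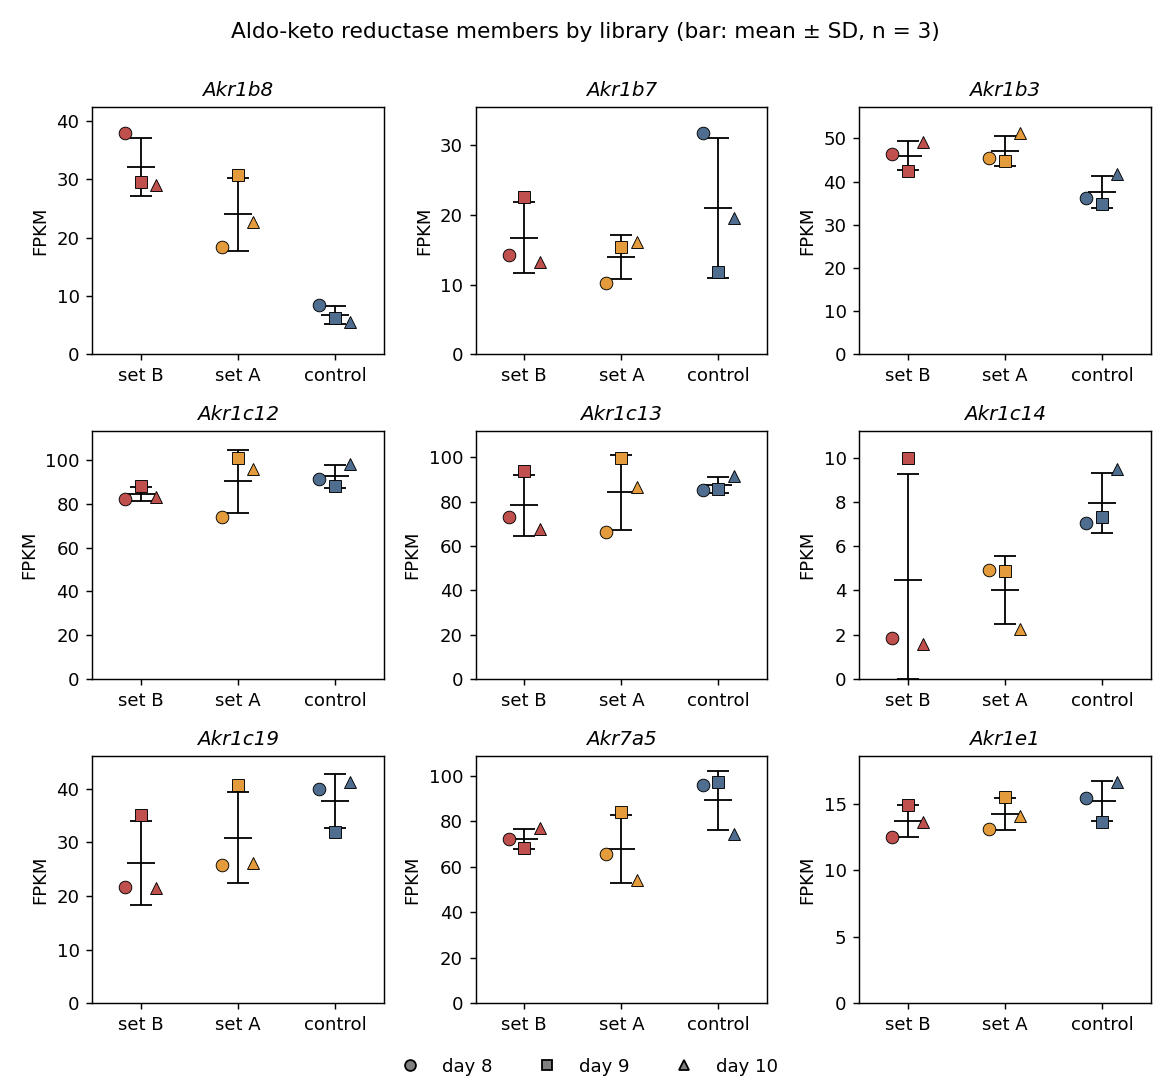
FPKM of the 9 aldo-keto reductases (y axis, linear from 0) in set B, set A and control (x axis). Each point is 1 library, its shape gives the day, and the bars are the mean ± SD of 3 libraries, with the lower bar of Akr1c14 in set B ended at 0. Akr1b8 runs from 18.5 to 37.9 FPKM in the mutants and from 5.51 to 8.56 FPKM in control, while the groups of Akr1b7, Akr1c12, Akr1c13, Akr1c14, Akr1c19, Akr7a5 and Akr1e1 overlap.

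Other RNA also differed between mutants and control. The 8 dissociation stress genes (Fos, Jun, Junb, Egr1, Ier3, Hspa1a, Hspa1b and Atf3) summed to 146 to 176 FPKM in the mutants and to 95.3 to 110 FPKM in control. Of the 7 tested, 6 had a positive and 1 a negative difference. Hspa1a and Hspa1b went the other way, at means of 0.343 and 1.44 FPKM in the mutants and 1.00 and 3.01 FPKM in control. These control means rest on the day 9 library, at 2.04 and 5.85 FPKM. The day 8 and day 10 controls, at 0.481 and 0.482 FPKM of Hspa1a and 1.58 and 1.59 FPKM of Hspa1b, lay within the mutant ranges. Of the 7, 2 rose, Junb and Ier3 (limma, adjusted p = 0.0133 and 0.0415), where 1.16% of all genes passed. Junb no longer passed without control day 9 or 10 (adjusted p = 0.0617 and 0.0634), and Ier3 passed in 2 of 9 fits that left out 1 library, with adjusted p of up to 0.175 in the others. The 6 Paneth cell markers summed to 10351 to 24894 FPKM in the mutants and to 39979 to 65463 FPKM in control, and 4 of 6 fell, a count that lay between 0 and 4 as single libraries were left out. The 6 fibroblast markers summed to 0.242 to 6.64 FPKM in the mutants and to 0.0181 to 0.117 FPKM in control. Of the 6 only 1 was tested, and it did not pass. The fibroblast sum was 4.61 FPKM in the day 8 library of set A, the mutant library with the lowest Akr1b8. It was higher in the day 9 libraries of set B and set A, at 6.64 and 5.92 FPKM. Those libraries had 29.5 and 30.8 FPKM of Akr1b8. The part of these shifts in the Akr1b8 level was not tested.

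Whether Akr1b8 differed between the 2 mutant sets, and over the days, was not used in choosing it. Set B averaged 32.2 ± 4.99 FPKM and set A 24.0 ± 6.23 FPKM (SD, n = 3 each), and their libraries overlapped. The difference of set B minus set A was 0.43 ± 0.21 on the log2 scale (95% interval −0.05 to 0.90) and did not pass limma's test over all genes (adjusted p = 1.0). A two-sided exact permutation test gave p = 0.3, where 3 against 3 cannot go below 0.1. The change per day within groups was −0.11 ± 0.10 (95% interval −0.35 to 0.13, adjusted p = 0.959 in limma). Against the same 3 control libraries, set B stood 2.10 ± 0.21 and set A 1.67 ± 0.21 higher on the log2 scale.

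The levels of the neighbours Akr1b10 and Akr1b7 overlapped between mutants and control. Akr1b7, an aldose reductase-like protein first known from the vas deferens and also made in the gut, had 14.3, 22.6 and 13.3 FPKM in set B and 10.3, 15.4 and 16.1 FPKM in set A on days 8, 9 and 10, against 31.7, 11.8 and 19.5 FPKM in control. The groups overlapped, with the highest and one of the lowest of the 9 values both in control. The difference from control was −0.36 ± 0.30 (limma, adjusted p = 0.530) and lay between −0.70 and −0.03 as single libraries were left out. Akr1b10, which is not one of the 9, had 13.2, 9.17 and 16.5 FPKM in set B and 9.79, 10.9 and 13.7 FPKM in set A, against 11.1, 8.25 and 11.1 FPKM in control, and its difference of 0.23 ± 0.18 did not pass the test (adjusted p = 0.508).

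Akr1b8 made up a different share of the 3 neighbours in mutants and control. It was 58.0, 48.2 and 49.4% of their summed FPKM in set B and 48.0, 53.9 and 43.2% in set A, against 16.7, 23.9 and 15.3% in control. Every mutant share was above every control share, as the choice of Akr1b8 largely fixes. The sum of the 3 genes overlapped between groups, at 55.6 ± 9.39 FPKM in the mutants and 38.0 ± 12.6 FPKM in control (SD, n = 6 and 3). Their transcripts are alike: over aligned stretches of 926 and 794 bases, Akr1b8 was identical to Akr1b7 at 86.9% and to Akr1b10 at 88.2% of positions. Of its runs of 31 bases, 10.5% occur in another gene, so a small part of its reads could be counted for a neighbour.

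**Figure D2:**
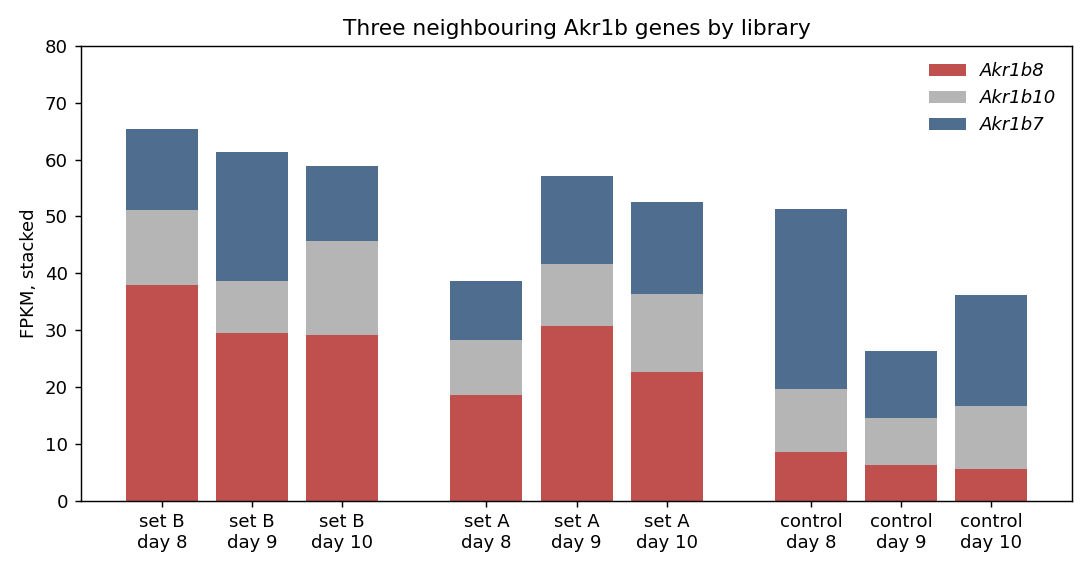
Stacked FPKM (y axis, linear from 0) of Akr1b8, Akr1b10 and Akr1b7 in each of the 9 libraries (x axis, set B, set A and control, days 8 to 10). Akr1b8 fills 43.2 to 58.0% of each mutant bar and 15.3 to 23.9% of each control bar, and the whole bars overlap in height between the groups.

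Akr1b3 is the mouse aldose reductase, the enzyme that turns glucose into sorbitol in the first step of the polyol pathway. It had 46.3, 42.5 and 49.3 FPKM in set B and 45.5, 44.9 and 51.2 FPKM in set A on days 8, 9 and 10, against 36.2, 34.9 and 41.8 FPKM in control. All 6 mutant libraries were above all 3 controls, as for 628 of all 12097 genes (5.19%), but the gap was small, since the lowest mutant value was 1.02 times the highest control value. The difference of 0.30 ± 0.08 did not pass limma's test over all genes (adjusted p = 0.0979). It passed without the day 9 library of set B (0.33, adjusted p = 0.0468), with library weights (0.30, adjusted p = 0.0305) and with libraries rescaled to equal totals (0.34, adjusted p = 0.0447).

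The Akr1b3 value is uncertain, because 61.0% of its runs of 31 bases also occur in the pseudogene Gm6644. Gm6644 was listed at 10.8 FPKM in the day 9 control and at 0 to 0.939 FPKM in the other 8 libraries. Summed, the pair had 46.5, 42.6 and 49.5 FPKM in set B and 45.6, 45.8 and 51.4 FPKM in set A, against 36.5, 45.7 and 41.8 FPKM in control. In the sums the groups overlapped, and the difference was 0.18 ± 0.09 (limma, adjusted p = 0.271).

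Akr1c12 and Akr1c13, members of the hydroxysteroid dehydrogenase branch, had the highest means of the 9 members in the mutants. Akr1c12 had 82.2, 88.0 and 83.3 FPKM in set B and 74.0, 101 and 96.1 FPKM in set A, against 91.1, 88.2 and 98.1 FPKM in control. Akr1c13 had 73.1, 94.0 and 67.8 FPKM in set B and 66.2, 99.8 and 86.5 FPKM in set A, against 85.1, 85.6 and 91.8 FPKM in control. Mutant and control libraries overlapped for both genes, with differences of −0.09 ± 0.10 and −0.12 ± 0.14 (adjusted p = 0.651 and 0.655 in limma). The pair's transcripts are identical at 94.6% of 1260 aligned bases and share 39.2% of their runs of 31 bases, so the split of reads between them is uncertain. Their summed level was 169 ± 23.2 FPKM in the mutants and 180 ± 8.69 FPKM in control (SD, n = 6 and 3).

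Akr1c14, a hydroxysteroid dehydrogenase that inactivates dihydrotestosterone, was the least abundant member in the mutants and the one that varied most within them. It had 1.84, 10.0 and 1.56 FPKM in set B and 4.91, 4.89 and 2.25 FPKM in set A on days 8, 9 and 10, against 7.06, 7.32 and 9.51 FPKM in control. The mutant libraries were below every control library in 5 of 6 cases and above every control library in the day 9 library of set B. With all libraries the difference was −0.96 ± 0.46 and did not pass limma's test (adjusted p = 0.279). Without that library it was −1.30 ± 0.22 and passed (adjusted p = 0.0200), as it did with library weights (−1.17, adjusted p = 0.0446).

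Akr1c19, a further hydroxysteroid dehydrogenase of the cluster, had 21.7, 35.1 and 21.5 FPKM in set B and 25.7, 40.6 and 26.2 FPKM in set A, against 40.0, 31.9 and 41.2 FPKM in control. In both mutant sets the day 9 library was the highest and in control it was the lowest, and 4 of the 6 mutant libraries were below every control. Its difference of −0.43 ± 0.20 did not pass (limma, adjusted p = 0.278), nor did it without the day 9 library of set B (−0.54 ± 0.16, adjusted p = 0.0843).

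Marker sums of other cells shared parts of the library order of Akr1c14 and Akr1c19. The 10 absorptive enterocyte markers summed to 3202, 9454 and 5186 FPKM in set B and to 3026, 5059 and 4561 FPKM in set A, against 8528, 3790 and 5449 FPKM in control. As with Akr1c19, the day 9 sum was the highest in each mutant set and the lowest in control. Of the 10 differences from control 2 were positive and 8 negative, with a median of −0.42. Alpi and Fabp1 had higher means in the mutants, 808 and 1044 FPKM, than in control, 633 and 805 FPKM. With all libraries 0 of the 10 markers passed limma's test, Lct, the lactase gene, having the lowest p (log2 −2.69, adjusted p = 0.215). Without the day 9 library of set B, where 8.29% of all genes passed, 1 of the 10 passed, Lct, with a difference of −3.45 (adjusted p = 0.0277). The 5 T cell markers summed to 2.49 to 12.1 FPKM in the mutants and to 10.4 to 15.3 FPKM in control, with 0 of the 4 tested passing. The 4 tuft cell markers used here summed to 9.36, 22.3 and 6.74 FPKM in set B and to 17.4, 15.2 and 6.06 FPKM in set A, against 16.1, 21.2 and 28.9 FPKM in control. As for Akr1c14, the day 9 sum was the highest in set B and the day 10 sum the lowest in both mutant sets and the highest of the 3 in control. All 4 tuft differences were negative, with a median of −0.70, and 0 of the 4 passed with or without the day 9 library of set B. The part of these cells in the Akr1c14 and Akr1c19 levels was not tested.

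**Figure D3:**
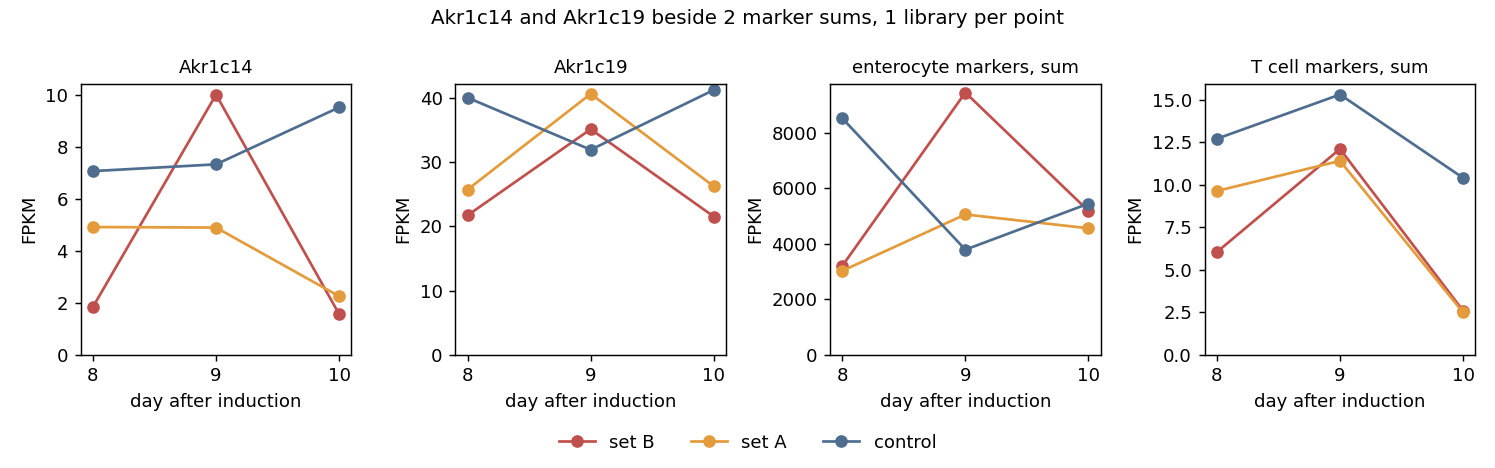
FPKM (y axis, linear from 0) of Akr1c14, Akr1c19, the sum of 10 enterocyte markers and the sum of 5 T cell markers by day after induction (x axis). Each point is 1 library and lines join the libraries of set B, set A and control, which are separate samples. The day 9 library of set B lies at 10.0 FPKM of Akr1c14, above the 3 controls, and at the highest enterocyte sum, 9454 FPKM.

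Akr7a5, the aflatoxin aldehyde reductase, had 72.0, 68.2 and 76.9 FPKM in set B and 65.5, 83.9 and 54.2 FPKM in set A, against 95.8, 97.1 and 74.4 FPKM in control. The day 10 control lay within the mutant range and the other 2 controls above it. The difference of −0.34 ± 0.14 did not pass over all genes (limma, adjusted p = 0.213). Akr1e1, which reduces an anhydrofructose formed from glycogen, was the steadiest member beside Akr1c12, at 12.5 to 15.5 FPKM in the mutants and 13.6 to 16.6 FPKM in control. Its groups overlapped and its difference was −0.12 ± 0.08 (limma, adjusted p = 0.453).

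Akr1b8 is left out of the counts between both mutant sets and control, since that contrast served to choose it. Of the other 8 members 0 passed limma's test, where 140 of all 12097 genes passed (1.16%), 62 higher and 78 lower in the mutants. Of these 8 members 2, Akr1b3 and Akr7a5, had an unadjusted p under 0.05, as 2537 of all genes did. The differences were positive for Akr1b3 and negative for the other 7, with a median of −0.23, where the median of all genes was 0.0. No sign among the 8 turned when the libraries were rescaled to equal totals. Without the day 9 library of set B, 2 of the other 8 passed, Akr1b3 with a positive and Akr1c14 with a negative difference, as did 8.29% of all genes.

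Between the mutant sets, 0 of the 9 members passed in limma, 0 had an unadjusted p under 0.05, and 0.0% of all genes passed, with 376 genes under an unadjusted 0.05. The differences of the other 8 members, set B minus set A, ran from −0.24 for Akr1c19 to 0.23 for Akr1b7. The 95% interval for Akr1c14 was wide, from −1.39 to 1.06, and that for Akr1b3 narrow, from −0.25 to 0.18. Over the days, 0 of the 9 members passed, 0 of the other 8 had an unadjusted p under 0.05, and 0.0% of all genes passed, with 390 genes under an unadjusted 0.05. With 1 library per group and day, a change that went one way in one group and the other way in another could not be tested.

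**Figure D4:**
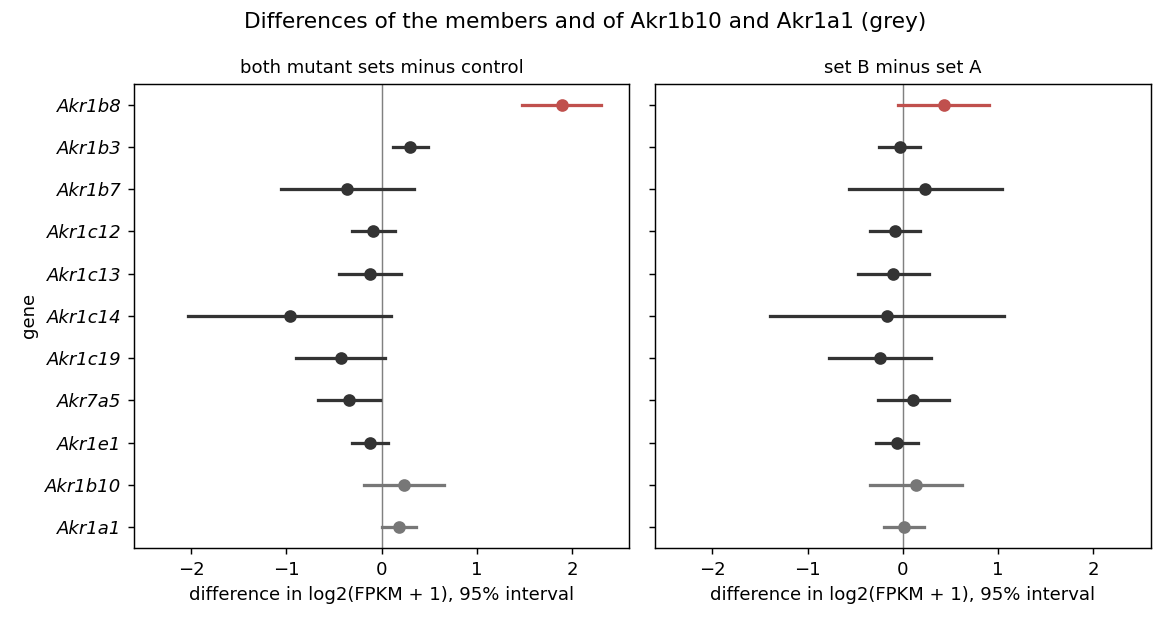
Differences in log2(FPKM + 1) with their 95% intervals (x axis) for the 9 members and for Akr1b10 and Akr1a1 in grey (y axis), for both mutant sets minus control on the left and set B minus set A on the right. On the left Akr1b8 lies at 1.89 and the other members between −0.96 and 0.30, and on the right every interval spans 0. The interval of Akr1b8 on the left is no test, since that contrast served to choose it.

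Akr1b8 held a different place among the members in mutants and control, while the total of the family overlapped. The 9 genes together had 375 ± 39.7 FPKM in the mutants and 395 ± 17.3 FPKM in control (SD, n = 6 and 3). Akr1b8 was 7.47 ± 1.71% of that sum in the mutants and 1.71 ± 0.353% in control. By level per length, the order in the mutants was Akr1c12, Akr1c13, Akr7a5, Akr1b3, Akr1c19, Akr1b8, Akr1b7, Akr1e1 and Akr1c14. The neighbours Akr7a5 and Akr1b3, Akr1b3 and Akr1c19, and Akr1e1 and Akr1c14 were apart in that order, and the other neighbours overlapped. In control Akr1b8 was the last of the 9, overlapping Akr1c14, which averaged 7.96 ± 1.35 FPKM.

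The genes most like Akr1b8 over the 9 libraries, among the 7815 whose log2 level averaged 3 or more, were Id1, Usb1, Thnsl2, Afg3l1 and Hyal2, with Pearson's r of 0.961, 0.958, 0.955, 0.953 and 0.951 on the log2 scale. This r is a description that mostly follows the gap between mutants and control. With each group's mean taken out it was 0.62, 0.20, 0.88, 0.71 and 0.58. Id1, which encodes an inhibitor of bHLH factors induced by BMP signalling, had 137, 136 and 149 FPKM in set B and 106, 129 and 137 FPKM in set A on days 8, 9 and 10, against 88.9, 79.9 and 67.1 FPKM in control. As with Akr1b8, the day 8 library of set A was the lowest mutant and the day 10 library the lowest control. Choosing Id1 by its r favours such a shared order. The highest mutant differed, being set B day 10 for Id1 and set B day 8 for Akr1b8 (37.9 FPKM).

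Other genes of carbonyl and redox metabolism were read in lists, all drawn up with results of these data known. Of the 11 other aldo-keto reductases, 9 were under the limit of 1 FPKM in 3 libraries and 0 of the 2 tested passed. One of these was Akr1a1, the general aldehyde reductase, which had 555, 514 and 606 FPKM in set B and 524, 535 and 604 FPKM in set A, against 510, 460 and 498 FPKM in control. All 6 mutant libraries were above the 3 controls, as for 5.19% of all genes, but by little. The difference was 0.18 ± 0.08 (limma, adjusted p = 0.234).

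The aldehyde and retinoid list holds enzymes that oxidise or reduce the same kinds of substrate, and also the retinoid-binding proteins Rbp2 and Crabp2 and the acyltransferase Lrat. Of its 21 tested genes 0 rose and 1 fell, where 1.16% of all genes passed, with a median difference of −0.19. The one was Aldh1b1, a mitochondrial aldehyde dehydrogenase. It had 344, 310 and 316 FPKM in set B and 306, 327 and 298 FPKM in set A, against 470, 461 and 519 FPKM in control (log2 −0.61 ± 0.07, adjusted p = 0.0102 in limma), and it passed in 7 of the 9 fits that each left out 1 library, the exceptions being control day 9 and day 10 (adjusted p = 0.0543 and 0.0567). Without the day 9 library of set B, 8.29% of all genes passed. In that fit Rdh10, a retinol dehydrogenase, also rose (0.36, adjusted p = 0.0324), and Adh1, Adh6a and Dhrs4 also fell, with adjusted p of 0.0291, 0.0234 and 0.0456. These 4 are named after their values were seen. Adh1, the main class I alcohol dehydrogenase, had 136, 434 and 111 FPKM in set B and 204, 298 and 136 FPKM in set A, against 378, 348 and 409 FPKM in control. As for Akr1c14, the day 9 library of set B lay above all 3 controls. The difference of Adh1 was −1.26 without that library (adjusted p = 0.0291) and −0.95 with it (adjusted p = 0.255).

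The NRF2 list holds target genes of this factor, which answers oxidants and electrophiles. It also holds Nfe2l2, which encodes NRF2, and Keap1, its inhibitor. Of the 24 tested genes of the list, 1 rose and 0 fell, where 1.16% of all genes passed, with a median difference of 0.04. The one was Gsta3, a glutathione S-transferase of a family of close copies, with 9.38, 8.11 and 10.4 FPKM in set B and 2.91, 6.08 and 6.69 FPKM in set A, against 1.72, 1.58 and 1.44 FPKM in control (log2 1.60 ± 0.20, adjusted p = 0.0164 in limma). It passed in 6 of 9 fits that left out 1 library, and not without control day 8, 9 or 10 (adjusted p = 0.0621, 0.0784 and 0.102). Without the day 9 library of set B, where 8.29% of all genes passed, Hmox1, Gsr and G6pdx also rose (adjusted p = 0.0234, 0.0144 and 0.0418). In the same fit Ephx1 fell (adjusted p = 0.0137). These genes are named after their values were seen. Gsr, the glutathione reductase, had 209, 86.6 and 222 FPKM in set B and 149, 165 and 246 FPKM in set A, against 91.9, 98.6 and 101 FPKM in control. The day 9 library of set B was the one mutant library below the control range of Gsr. Hmox1, the heme oxygenase, was highest in that library, with 1.59, 11.9 and 3.30 FPKM in set B and 3.36, 3.98 and 2.85 FPKM in set A, against 0.653, 0.577 and 1.22 FPKM in control.

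Of 9 tested genes of polyol and fructose metabolism 0 passed, with a median of −0.08. The lowest p was that of Sord, the sorbitol dehydrogenase that follows aldose reductase, at 44.8, 69.8 and 69.6 FPKM in set B and 52.6, 37.7 and 63.9 FPKM in set A, against 44.4, 27.7 and 43.6 FPKM in control (log2 0.53 ± 0.23, adjusted p = 0.239 in limma). Of 19 tested prostaglandin and steroid enzymes 0 passed, with a median of −0.07, and Hsd11b2, which inactivates glucocorticoids, had the lowest p (log2 −0.38 ± 0.11, adjusted p = 0.129). Without the day 9 library of set B, where 8.29% of all genes passed, Ptgs1 and Ptgr2 of this list fell. Their differences were −0.82 and −0.24 (adjusted p = 0.0450 and 0.0284), and these too are named after their values were seen.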

How the data were processed

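Poly(A) RNA of 9 libraries was sequenced in paired ends, per the labels' protocols. The authors deposited FPKM for 24930 gene symbols, a unit inferred from the numbers because no label or header names it. They are not whole, low values step inversely with transcript length, and each library's median ratio to the geometric mean (15138 genes) was 1.00276, as size-factor scaling gives. Column sums ran from 624923 to 755802. Kallisto 0.46.1, DESeq2 1.40.1 and mm9 are named in the submitters' processing notes, without their roles. Their annotation is not given in the sources used here. Low-value steps put 1 FPKM at 16.7 to 19.0 fragments per kilobase. Columns of no sample numbered 0.

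The design allowed for counts. The file held FPKM, so limma 3.58.1 (R 4.3.3) was run on log2(FPKM + 1), keeping the 12097 genes that reached 1 FPKM in 3 or more libraries. Group means were fitted to all 9 libraries with a robust trended prior. Adjustment ran over all genes by Benjamini and Hochberg's method (threshold 0.05). Such a log2 difference understates changes of low genes. Contrasts were the mean of both mutant sets minus control, set B minus set A, and a slope over days. Single values of the 2 sets were compared by a two-sided exact permutation test. Transcript sharing came from GENCODE M21, of another build than the authors'. Gene order came from RefSeq genes, and promoter sequences from RefSeq GRCm38.p6.

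The members and lists were chosen with earlier results of these data known. Named genes are the members, up to 3 passing genes of each list (or else the one with the smallest p), the 5 most like Akr1b8, Ctnnb1 and Cdx2, with exceptions said to be chosen after their values were seen. Cdx2 averaged 187 ± 8.60 FPKM in set B, 134 ± 9.28 in set A and 120 ± 16.6 in control (SD, n = 3 each). Set B, at 178 to 196 FPKM, lay above set A, at 126 to 144 FPKM. Set B minus set A was 0.48 ± 0.10 (limma, unadjusted p = 0.00151, adjusted p over all genes = 0.948). Alternatives were another pseudocount, no or a stricter filter, equal totals, library weights, a block for the day, leaving out each library, and 2 sums of gene pairs added after the data were seen.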

Additional observations from a re-analysis of the deposited data

How the results depend on the processing

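Against control, 271 values of the members other than Akr1b8 and of Akr1b10, Akr1a1, Aldh1b1, Gsta3, Sord, Hsd11b2, Junb and Ier3 were recomputed. Of these, 249 kept their direction and their side of the threshold, 6 newly passed, 16 no longer passed and 0 turned sign. The 6 are the Akr1b3 and Akr1c14 values given above and Hsd11b2 with library weights (−0.37, adjusted p = 0.0460). The 16 include Ier3 with no filter and with the day as a replicate block (adjusted p = 0.0597 and 0.0666).

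Between the mutant sets 9 of 152 member values turned sign, and over the days 11 of 143, none of them passing. For set B minus set A, leaving out single libraries gave −0.08 to 0.02 for Akr1b3 (0.01 with library weights), −0.22 to 0.00 for Akr1c12, −0.26 to 0.03 for Akr1c13, −0.84 to 0.21 for Akr1c14, −0.04 to 0.28 for Akr7a5 and −0.12 to 0.00 for Akr1e1. For the change per day it gave −0.16 to 0.19 for Akr1b7, −0.02 to 0.15 for Akr1c13, −0.34 to 0.11 for Akr1c14 (0.00 with library weights) and −0.06 to 0.09 for Akr1c19. With equal totals the change per day was −0.05 for Akr1c19 and −0.01 for Akr1e1. Akr1b8 kept its sign in both comparisons.

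The number of genes passing between both mutant sets and control was 140, but 80 with no filter, 1438 with library weights, and 17 to 995 as single libraries were left out. It was 36, 18 and 17 without control day 8, 9 or 10, 70 and 55 without set A day 9 or 10, and 45, 995 and 51 without set B day 8, 9 or 10. Rescaled to equal totals, 169 passed, 133 higher and 36 lower, against 62 and 78 as deposited. The rescaling moved the median of all genes by 0.03. Between set B and set A the number was 0, but 2 with a pseudocount of 0.1, 3 with library weights, and 0 to 2 as single libraries were left out (2 without control day 8, 1 without set B day 8). The causes were not tested.

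With the day as a replicate block, 97 genes passed between both mutant sets and control, and 0 between the sets. Deviations of same-day libraries correlated at −0.24 to 0.62, highest between set B and set A on days 9 and 10 (0.40 and 0.62). Of 9 libraries, 4 correlated best with their own day. The main fits did not pair the libraries by day, and a day effect shared by only the mutant sets was not tested. Depth limits low members such as Akr1c14, which rests on about 63.5 to 455 fragments per mutant library and 306 to 430 per control library.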
